A study of Brassica napus with 6 samples.

Results

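The miR171 family was followed in young pistils and siliques, the seed pods, of rapeseed (Brassica napus), an allotetraploid crop with an A and a C subgenome. Its members were taken by family number, which gave 4 of the 69 known miRNAs in the small RNA count tables (ath-miR171a-3p, ath-miR171b-5p, ath-miR171c-5p and mtr-miR171b). In the degradome tables of known miRNAs, the same rule gave 8 of 95 entries in the long-silique line (LS) and 20 of 382 in the short-silique line (SS). Each line had 2 small RNA libraries and 1 degradome library, so the degradome comparison has no replicate check. LS and SS were backcross progenies of the cross between 8008 and 4942, grown in a field, and their tissue was pooled from 0 to 7 days after pollination, with about 12 plants per stage. No treatment or transgene is recorded, and the labels speak of 2 replicated experiments without saying which library came from which. The series asked which miRNAs may take part in early silique development.

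In plants, miR171 is known for guiding ARGONAUTE to cut mRNAs of a group of GRAS transcription factors, called SCL6 or HAIRY MERISTEM genes in Arabidopsis, which keep shoot meristem cells undifferentiated. The cut falls in the coding region, opposite the middle of the miRNA. A miRNA precursor yields a strand from each arm, named 5p and 3p, and the 3p strand is the usual guide of miR171. Degradome sequencing reads mRNA fragments from their 5′ end, so that a pile of reads starting at 1 base can show such a cut. The identifiers of the mRNAs in the degradome tables carry no gene name in the sources used here, so whether they are GRAS genes was not tested.

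The degradome tables pair 2 mature miR171 sequences with their targets. They are shown because every listed miR171 target rests on them, in DNA letters as in the tables and with the seed, bases 2 to 8, in capitals.
bra-miR171e: tGATTGAGccgcgccaatatc
mtr-miR171b: tGATTGAGccgcgtcaatatc
Both are 21 bases long, share the seed, and differ by the single substitution C14T, counted from 1 at the 5′ end with the bra-miR171e base first. Of these names, mtr-miR171b has a row in the count tables and bra-miR171e has none. Conversely, ath-miR171a-3p, ath-miR171b-5p and ath-miR171c-5p were counted but have no degradome entry under these names. Whether any of them has the same sequence as bra-miR171e was not tested, so a missing name does not mean a missing target. The same holds more widely, as 10 of the 32 names of known miRNAs in the degradome tables occur in the count tables. The count tables give no sequences, so how reads that fit several near-identical miR171 names were assigned is not given in the sources used here.

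The 10 listed targets carry only 2 different site sequences, shown 5′ to 3′ with the bases that differ in capitals.
common site: gatattgGcGcggctcaatca
variant site: gatattgTcAcggctcaatca
The common site occurred in 8 targets and the variant site in 2, and the substitutions from the common to the variant site were G8T and G10A, counted from 1 at the 5′ end of the site. bra-miR171e paired with all 21 bases of the common site. mtr-miR171b paired with 20 and formed a G:U pair at its position 14. Against the variant site each miRNA had 19 paired bases and 2 mismatches, at miRNA positions 12 and 14. All 7 seed bases were paired in each of these 4 combinations, and so were positions 10 and 11, between which plant miRNAs direct the cut.

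**Figure D1:**
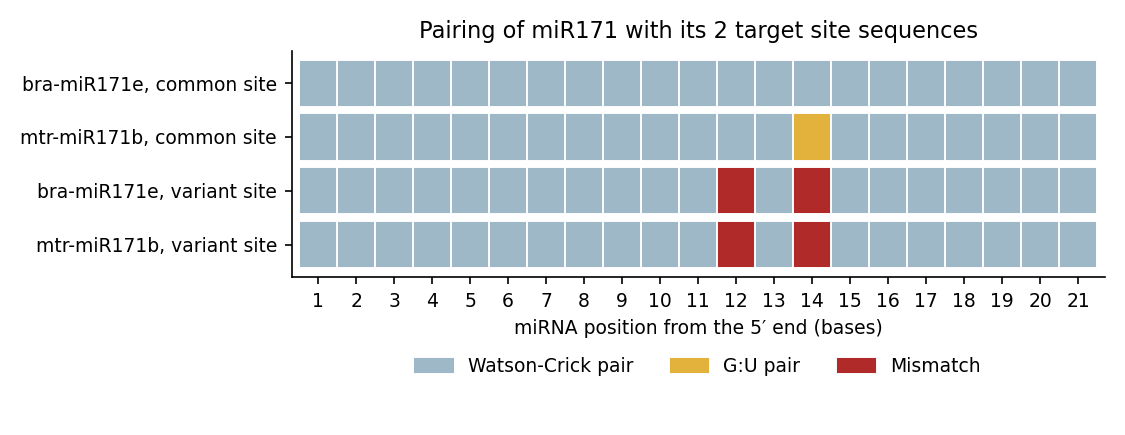
Pairing state at each of the 21 miRNA positions (x axis, bases from the 5′ end) for bra-miR171e and mtr-miR171b against the common and the variant site. Every departure from Watson-Crick pairing lies at position 12 or 14, outside the seed.

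The small RNA libraries held 6046506 to 6739286 reads by the authors' totals, of which known miRNAs took 4.82% in each LS library and 6.50% to 6.51% in the SS libraries. Over 52 miRNAs the counts of LS libraries 1 and 2 agreed within sampling noise (chi-square 52.3 on 52 degrees of freedom, p = 0.464). LS levels are therefore given as 1 sample, with the 95% Poisson interval that the counts of its libraries together allow. The tests, in contrast, kept the LS libraries as separate samples unless stated, so their p-values may be too small, and edgeR's values with LS as 1 sample are given beside them. Between the SS libraries the counts over the same miRNAs differed by more (chi-square 83.6 on 52 degrees of freedom, p = 0.0035). Levels in SS are given as the mean ± SD. Intervals cover counting error only. The labels do not tie a library to 1 of the replicated experiments, so the tests below see only the spread among these 4 libraries, part of which may be technical.

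Per 1000000 library reads (RPM), the level of miR171 was nearly the same in the lines. The 4 names together stood at 66.6 and 65.0 RPM in the LS libraries and at 67.3 and 71.1 RPM in the SS libraries. The sum thus stood at 65.8 RPM in LS (Poisson interval 61.5 to 70.3) and at 69.2 ± 2.65 RPM in SS (SD, n = 2). By this sum the family ranked 17 of 39 in every library. The lines did not overlap, with SS above LS, but on this scale the same was true of 28 of 32 families with enough counts (87.5%).

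ath-miR171a-3p, the member named for the guide arm, was the most abundant, at 27.1 and 27.3 RPM in LS and 26.1 and 27.6 RPM in SS. The SS libraries lay on either side of the LS libraries. Its mean was 27.2 RPM in LS (Poisson interval 24.5 to 30.2) and 26.9 ± 1.07 RPM in SS (SD, n = 2).

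ath-miR171b-5p, the opposite arm of another precursor, followed at 23.7 and 21.1 RPM in LS and 21.2 and 26.1 RPM in SS. Here the SS libraries were farther apart than the LS libraries, and the lines overlapped. Its mean was 22.4 RPM in LS (19.9 to 25.1) and 23.6 ± 3.47 RPM in SS (SD, n = 2).

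mtr-miR171b, the only counted name that also has degradome entries, stood at 14.7 and 15.6 RPM in LS and at 19.5 and 15.8 RPM in SS. It was the only one of the 3 better-counted members whose lines did not overlap in RPM, with 42 of 52 miRNAs likewise higher in SS (80.8%). The separation was narrow, as SS library 2 lay just above LS library 2. The mean was 15.1 RPM in LS (13.1 to 17.4) and 17.6 ± 2.65 RPM in SS (SD, n = 2).

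ath-miR171c-5p was near the limit of detection, with 7 counts in each LS library and 3 and 10 counts in the SS libraries. Its SS libraries lay on either side of LS, and the SS to LS ratio of summed counts was 0.981 (exact 95% counting interval 0.424 to 2.25). It did not pass the filter of 10 counts in 2 libraries and was not tested.

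**Figure D2:**
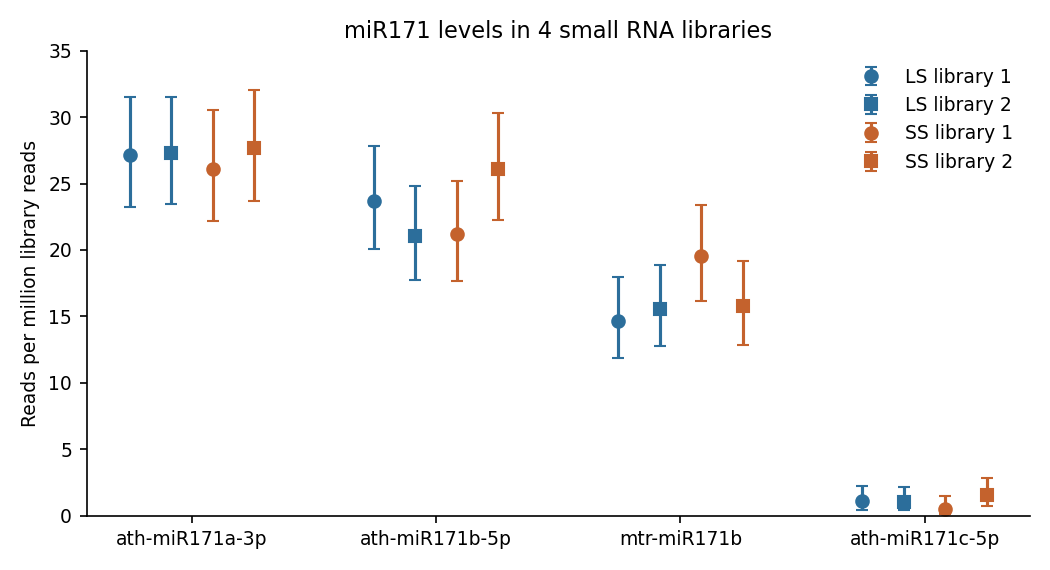
Levels of the 4 miR171 names in RPM (y axis), 1 point per library with its 95% Poisson interval, LS in blue and SS in orange. ath-miR171a-3p lies at 26.1 to 27.6 RPM, and ath-miR171c-5p at 0.496 to 1.56 RPM.

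The order of the levels was ath-miR171a-3p, ath-miR171b-5p, mtr-miR171b and ath-miR171c-5p in all 4 libraries. Of the reads of ath-miR171a-3p and ath-miR171b-5p, the latter held 46.6% in LS library 1 (Wilson 95% interval 41.3% to 52.0%). The SS libraries 1 and 2 had shares of 44.8% (39.1% to 50.5%) and 48.5% (43.3% to 53.8%), and these 3 intervals include an even split. In LS library 2 its share was 43.6% (38.3% to 49.0%), below an even split. The Poisson intervals of ath-miR171b-5p and mtr-miR171b overlapped in LS library 2 and SS library 1 (in the latter 17.7 to 25.2 against 16.2 to 23.4 RPM), but not in LS library 1 or SS library 2 (in the latter 22.3 to 30.4 against 12.8 to 19.2 RPM). ath-miR171c-5p lay far below the others.

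Within the family, the share of the 5p member ath-miR171b-5p differed between the lines by less than between libraries of a line. It made up 35.6% of miR171 reads in LS library 1 (Wilson 95% interval 31.2% to 40.2%) and 32.4% in LS library 2 (28.2% to 36.9%). In SS library 1 its share was 31.4% (27.1% to 36.1%) and in SS library 2 it was 36.7% (32.4% to 41.2%). SS exceeded LS by 0.068 percentage points in the means, less than the spread within either line (exact permutation test over 2 against 2 libraries, two-sided, p = 1, where 0.333 is the smallest p such a test allows). ath-miR171a-3p held 40.7% and 42.0% in LS and 38.8% and 38.9% in SS, and mtr-miR171b 22.0% and 24.0% in LS and 29.0% and 22.2% in SS, neither of which was tested. These shares do not depend on how libraries are scaled. They are not arm ratios of 1 precursor, since the tables name miR171a by its 3p arm only, and miR171b and miR171c of Arabidopsis by their 5p arm only.

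The line difference itself depended on the scaling. On the TMM scale, which sets library sizes from the bulk of the known miRNAs, ath-miR171a-3p was lower in SS, at -0.31 ± 0.10 in log2 fold change (SE, adjusted p = 0.00917 from edgeR's quasi-likelihood test over 52 miRNAs). It was 1 of 9 miRNAs called lower (17.3% of those tested), and 51.9% were called in either direction. ath-miR171b-5p, at -0.21 ± 0.11 (edgeR adjusted p = 0.127), and mtr-miR171b, at -0.08 ± 0.14 (0.689), did not pass. The summed family was fitted with TMM factors of its own, from the counts of families, so its value is not on the members' scale. It passed at -0.30 ± 0.08 (edgeR adjusted p = 0.000752), as did 8 of 32 families in that direction (25%) and 56.2% in either.

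With the authors' library totals as library sizes, none of these passed. The log2 fold change was then -0.02 ± 0.10 for ath-miR171a-3p (edgeR adjusted p = 0.912), 0.08 ± 0.12 for ath-miR171b-5p (0.511), 0.22 ± 0.15 for mtr-miR171b (0.178) and 0.07 ± 0.06 for the sum (0.317), while 36 of the 52 miRNAs were called (69.2%), and 75% of families. The median of the 52 miRNAs was 0.12 with TMM and 0.41 with these totals. A change of scaling shifts all miRNAs by nearly the same amount, so ranks and distances from that median stay alike by construction. Measured from that median, ath-miR171a-3p stood at -0.43 under either scaling and ranked 6 from the lowest of 52. ath-miR171b-5p stood at -0.33 (rank 10) and mtr-miR171b at -0.20 (rank 13). All 3 tested members therefore lay below the middle of the known miRNAs, while their share of all library reads changed little.

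With the LS libraries summed into 1 sample, ath-miR171a-3p did not pass (-0.32 ± 0.16, edgeR adjusted p = 0.0861, with 13.5% of miRNAs called lower). The family sum still passed (-0.28 ± 0.10, edgeR adjusted p = 0.0191, with 25% of families called lower). ath-miR171a-3p also failed the test without LS library 1 (-0.32, edgeR adjusted p = 0.222), without LS library 2 (-0.31, 0.271) and without SS library 1 (-0.24, 0.125). ath-miR171b-5p passed when SS library 2 was left out (-0.38, edgeR adjusted p = 0.0272).

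The effect of the scaling can also be shown without a test, from the same counts, so it is no separate evidence of a lower level. Known miRNAs took 4.82% of reads in each LS library and 6.50% to 6.51% in the SS libraries. A level that is unchanged in RPM therefore falls in SS when divided by their reads. Per 1000000 reads of known miRNAs, ath-miR171a-3p stood at 563 and 566 in LS and at 402 and 426 in SS. On that scale ath-miR171b-5p stood at 492 and 437 against 325 and 401, and mtr-miR171b at 304 and 323 against 300 and 243. In all 3 the SS libraries lay below both LS libraries, as they did for 21 of the 52 miRNAs (40.4%). For mtr-miR171b the separation was narrow, with SS library 1 at 300 just below LS library 1 at 304. The summed family, at 1381 and 1348 in LS against 1034 and 1094 in SS, was likewise lower without overlap, as were 43.8% of families.

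**Figure D3:**
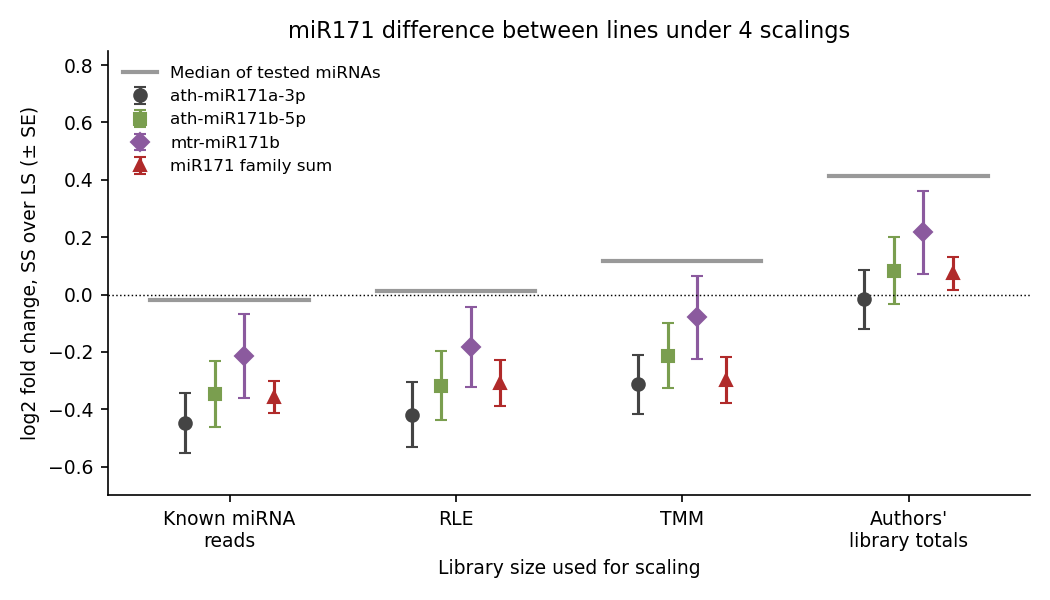
log2 fold change of SS over LS with its SE (y axis) for 3 miR171 members and the family sum, which was fitted on the table of families, under 4 library scalings (x axis), with the median of the 52 tested miRNAs as a grey bar. The points of the 3 members keep their distance from the median by construction, as a scaling shifts all miRNAs alike. ath-miR171a-3p runs from -0.45 with known miRNA reads to -0.02 with the authors' library totals.

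In the authors' deposited tables, which compare 1 library with 1 library, no miR171 name was marked as changed in either numbered pair, where 20.3% of the 69 miRNAs were marked in each. The authors' deposited table gave mtr-miR171b a log2 ratio of SS to LS of 0.41 (p = 0.0384) in pair 1 and 0.02 (p = 0.928) in pair 2, where 53.6% and 52.2% of the miRNAs had a p below 0.05. For ath-miR171b-5p the authors' deposited tables gave -0.16 (p = 0.345) and 0.31 (p = 0.0613), opposite in sign between the pairs. The ratios of ath-miR171a-3p in the authors' deposited tables were -0.06 and 0.02.

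The known miRNAs whose pattern over the 4 libraries, apart from its mean level, most resembled that of ath-miR171a-3p were nta-miR168a, aly-miR160b-3p and ath-miR165a-3p. The distances between their centred log2 RPM profiles and that of ath-miR171a-3p were 0.10, 0.21 and 0.21, over 4 libraries and among 32 candidates. nta-miR168a, from the family that acts on ARGONAUTE1, stood at 4570 and 4536 RPM in LS and at 4758 and 4662 RPM in SS. Among 23 tested members of 10 families that act on other transcription factors, 11 were higher and 4 lower in SS with TMM, and 17 and 2 with the authors' library totals. Over all 52 tested miRNAs the numbers were 18 and 9 with TMM, and 33 and 3 with those totals. The log2 fold changes of the 23 members with TMM ran from -2.78 ± 0.27 for ath-miR160a-5p (edgeR adjusted p = 7.1e-17), which acts on auxin response factors, to 1.80 ± 0.20 for ptc-miR156k (7.38e-14), which acts on SPL genes. Their median was 0.16. The miR171 members, at -0.31 to -0.08, lay below this median and well inside the range, which 1 member sets at each end.

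Cleavage sites of miR171 were listed in both degradome libraries. There were 4 targets in LS and 10 in SS, and the 4 of LS were all in SS, which makes 40% of the SS targets. The LS table ends inside an entry at an identifier of chromosome A09, and its targets run in ascending order. Up to that identifier, SS also held exactly these 4 targets. Over the same range SS listed 83 pairs of a known miRNA family and a target, of which 53 were in LS. LS listed 57 such pairs, and 53 of these were in SS. Most LS pairs of known families were thus also listed in SS, as those of miR171 were. The 6 further SS targets all lie beyond the end of the LS table, so their presence in LS is not analysed here.

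The targets in both libraries were BnaA03g21080D with a listed position of 832 in the mRNA, BnaA04g01210D at 721, BnaA07g37990D at 835 and BnaA07g01720D at 499. Position, score and category of each were identical in LS and SS. BnaA07g01720D carried the variant site and the other 3 the common site.

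The further targets in SS were BnaAnng18540D and BnaAnng18550D, both at 718, BnaC03g25140D at 721, BnaC04g22080D at 733, BnaC07g03310D at 505 and BnaCnng57010D at 823. Of these, BnaC07g03310D carried the variant site. The variant site therefore occurred once in each subgenome, in identifiers of chromosomes A07 and C07, and at the lowest positions, 499 and 505, against 718 to 835 for the common site. BnaAnng18540D and BnaAnng18550D have consecutive identifiers and the same position, and the tables give no tag reads, so the same reads may have been assigned to both. This holds for any targets that share the sequence around the cut, and the number of separately cut mRNAs may be below 10.

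**Figure D4:**
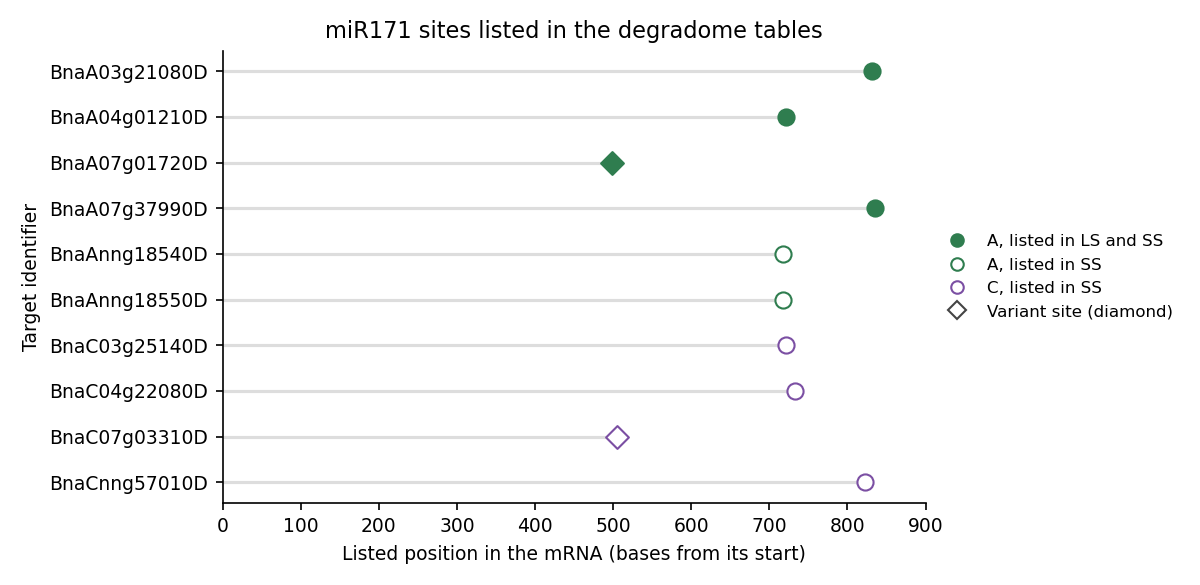
Listed position of the miR171 site in each target mRNA (x axis, bases from its start), with A-subgenome identifiers in green and C-subgenome identifiers in purple. Filled symbols were listed in LS and SS, open symbols in SS, beyond the end of the LS table, and the 2 diamonds mark the variant site at 499 and 505.

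By subgenome letter, SS listed 6 miR171 targets in A and 4 in C, while known miRNAs as a whole had 46.6% of 251 targets in A. For 3 of the 10 the identifier gives no chromosome number. All 4 LS targets were in A, as were all 57 targets of known miRNAs in that table, which ends before the C identifiers. The subgenomes could therefore be set side by side in SS only.

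Each target was listed for both bra-miR171e and mtr-miR171b at the same position, so the 8 and 20 entries count each site 2 times. No other miRNA, known or predicted, was listed for these mRNAs. In the alignment score, which is 0 for full pairing, bra-miR171e had 0 and mtr-miR171b had 0.5 at every common site, and both had 2 at the variant site. The median over miR171 entries was 0.5 in each library, and over all known miRNAs 2.

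A score of 0 was rare elsewhere. It was given to 3 miR171 and 3 miR156 entries in LS, and these made up 6.32% of the entries of known miRNAs. In SS it was given to 8 and 8 entries of these families, together 4.19%. No other family reached it in either library.

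All 28 miR171 entries were in category 0, and all had a listed p of 0 in tables that list p with at most 3 decimals. The tables do not define the categories. In common degradome tools, category 0 marks a position with the most reads on its mRNA. In LS, 95.8% of the entries of known miRNAs were in category 0, so the miR171 entries there were near the background, and 41.1% had a p of 0. In SS the background was 69.9% for category 0 and 22.3% for a p of 0. Families with all entries in category 0 numbered 12 of 15 in LS and 10 of 20 in SS, and those with a p of 0 throughout 6 and 5. By targets, of these 5 families in SS, miR171 had 10 and miR166, an HD-ZIP III regulator, 9. By contrast, miR156 had 80 of 160 entries in category 0 in SS and 2 with a p of 0. It supplied 160 of the 382 SS entries of known miRNAs, so this 1 family lowers both SS background shares. In LS all 27 miR156 entries were in category 0, and 7 had a p of 0.

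**Figure D5:**
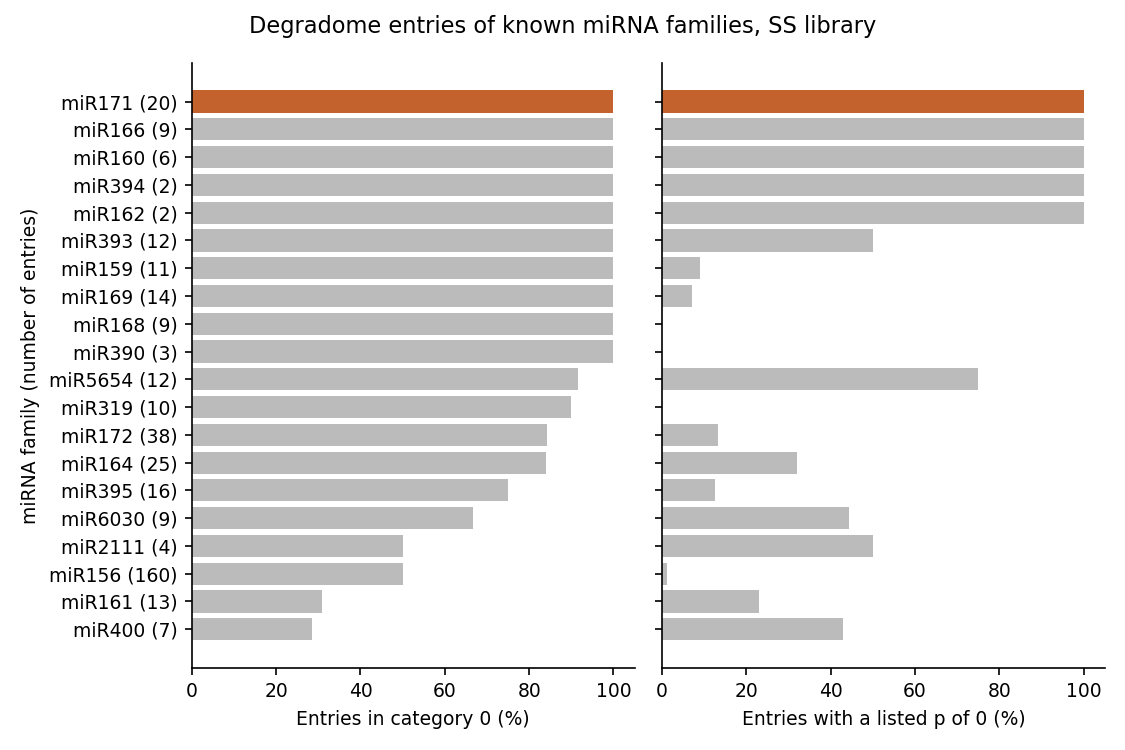
Share of degradome entries in category 0 (left) and with a listed p of 0 (right), in percent, for the 20 known miRNA families in the SS library, with the number of entries in parentheses and miR171 in orange. All 20 miR171 entries lie at the full share in both panels.

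The listed positions had a further property in common. Divided by 3, each of the 10 miR171 positions left a remainder of 1. Among the 266 other sites of known families in SS, 18.8% left 1, 54.1% left 0 and 27.1% left 2. In LS, 22.6% of 53 other sites left 1. Where the mRNA models start is not given in the sources used here, and the targets are similar to one another at the site, so the 10 positions are not independent.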

How the data were processed

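The authors deposited 1 table of known miRNAs per pair of same-numbered LS and SS libraries. Per the file headers it holds the read count of each miRNA, the total reads of the library, a level, a log2 ratio of SS to LS and a p-value, and the kind of test is not given in the sources used here. The deposited level was tested to be RPM, the count over the total times 1000000 (largest deviation 5e-05), with 0.01 where the count was 0. Per the deposited degradome tables, each entry holds a position, an alignment score, a category and a p-value, without read numbers. The aligner, the genome build and the site caller: not given in the sources used here. Target identifiers were looked up in the RefSeq gene table of another assembly (Da-Ae), and 0 of 10 matched.

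Counts were tested with edgeR 4.0.16 (quasi-likelihood, TMM, two-sided) in R 4.3.3 on all known miRNAs with at least 10 counts in 2 libraries, and on counts summed by family, with Benjamini-Hochberg adjustment and a threshold of 0.05. The SE is the log2 fold change over the square root of F. The test was run on simulated counts with Poisson noise only and with larger differences than those of miR171. That check therefore does not cover the miR171 calls. Alternatives were RLE factors, the authors' totals, known miRNA sums, other filters, DESeq2 1.42.0, limma-voom (limma 3.58.1), a replicate block, LS as 1 sample and each library left out. Most similar miRNAs were the 3 outside the family, with a mean of at least 50 counts, at the smallest Euclidean distance in centred log2 RPM. Every listed miR171 target is named. The list of transcription factor families held 12, of which 10 had tested members. Members and lists were chosen with earlier results of these data known. Tables of predicted miRNAs carry no family number and were not used. Python 3.11.15, scipy 1.17.1 and matplotlib 3.10.9 served for intervals, the exact test and figures.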

Additional observations from a re-analysis of the deposited data

How the results depend on the processing

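Values are log2 fold changes of SS over LS unless stated. ath-miR171a-3p was below 0 in all 15 alternatives, and its call was lost in 8: the authors' library totals (-0.017, also with LS as 1 sample), no filter (-0.26), DESeq2 (-0.42), LS as 1 sample (-0.32) and 3 of the 4 left-out libraries (-0.36 to -0.24 over all 4). ath-miR171b-5p passed with RLE factors (-0.32), known miRNA sums (-0.35), 50 counts in 2 libraries (-0.30) and without SS library 2, ran from -0.38 to -0.04 over the left-out libraries, and was at 0.084 with the authors' totals, also with LS as 1 sample. mtr-miR171b never passed, and was above 0 with the authors' totals (0.22, and 0.22 with LS as 1 sample) and without SS library 2 (range -0.20 to 0.068). The family sum kept its call in 13 of 15 alternatives (-0.32 to -0.24 over the left-out libraries) but was at 0.074 with the authors' totals, also with LS as 1 sample. Apart from the effect of the scaling and of the number of samples, which follows from their construction, the cause was not tested.

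With the replicate number as a block, no miR171 call changed (ath-miR171a-3p -0.31, ath-miR171b-5p -0.21, mtr-miR171b -0.08, sum -0.30), and 23 of 52 miRNAs passed against 27 without the block. The deviations of LS library 1 and SS library 1 from their line means had a weak correlation of -0.25 over 52 miRNAs. As the LS libraries agreed within sampling noise, this cannot decide whether the numbers mark pairs. The main tests did not take them as pairs. With the numbers crossed, a fit chosen after the data were seen, 25 passed. DESeq2 called 17. The fit with the authors' totals and LS as 1 sample was also chosen after the data were seen.

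Per 1000000 known miRNA reads, the family stood at 1365 in LS and 1064 in SS, in place of 65.8 and 69.2 RPM, which ran from 65.0 to 66.6 and from 67.3 to 71.1 with a library left out. The share of ath-miR171b-5p in SS minus LS ran from -2.56 to 2.70 percentage points with a library left out. The miR171 targets in SS fell from 10 to 4 up to the last LS target. The limits used on category, p and score could not remove any target. All miR171 entries had category 0, a p of 0 and a score of at most 2. At 3 to 10 counts per library, ath-miR171c-5p could not show a difference below about the width of its interval.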
